A study of Mus musculus with 20 samples.

Results

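The core circadian clock genes examined here are the 10 genes Arntl, Clock, Npas2, Per1, Per2, Per3, Cry1, Cry2, Nr1d1 and Nr1d2, chosen by symbol from the 45306 genes of a liver expression table and all found there. RNA was sequenced from the livers of 20 mice in 4 groups of 5, which crossed Sirt2 genotype with intermittent cold exposure (CE). Control mice were wild type and unexposed, CE mice were wild type and cold-exposed, Sirt2-/- mice were knockout and unexposed, and Sirt2-/-/CE mice were knockout and cold-exposed. Per the methods of the study, exposed mice spent 3 h per day at 4 °C for 3 weeks, grouping was done at an age of 5 weeks, and the others stayed at room temperature. Knockouts were C57BL/6 mice in which CRISPR-Cas9 was aimed at exons 5 to 7 of Sirt2, a NAD-dependent deacetylase, in the fertilized egg, so that no organ is spared by design. All mice lived under 12 h of light and 12 h of dark, with the switches at 8 a.m. and 8 p.m. The hour at which each liver was taken is not given in the sources used here, so the group, the hour of collection and the phase of the clock cannot be told apart.

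The liver clock is a feedback loop of transcription. ARNTL (also called BMAL1) pairs with CLOCK or with its relative NPAS2, binds E-box sequences and switches on the Per and Cry genes, whose products return to the nucleus and inhibit the pair that made them. Nr1d1 and Nr1d2, which encode the nuclear receptors REV-ERBα and REV-ERBβ, are switched on by the same pair and repress Arntl, Clock, Npas2 and Cry1 through ROR elements. Output factors such as DBP act through D-boxes. In mouse liver Arntl and Npas2 normally peak at the opposite side of the day from Nr1d1, Per3 and Dbp, with Per2 and Cry1 later than Nr1d1, so that the amounts of these transcripts in one liver depend strongly on the hour.

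The sequences that this wiring uses were looked for near the start sites of the clock genes, because some of the genes that moved together below belong to different arms of the loop. RefSeq promoter windows on GRCm38.p6, each with 250 bases before and 50 after an annotated start, were found for 9 of the 10 genes, some with several starts, and Per2 had none. The letters CACGTG (E-box) occurred in windows of 2 of the 9 genes and in 7.15% of all 32851 windows. The letters CACGTT (a weaker E-box form, often called E′-box) occurred in 3 of 9 genes and in 4.68% of all windows. TTATGTAA (D-box) occurred in 1 of 9 and in 0.94% of all, and TAGGTCA or TGGGTCA (ROR element core) in 1 of 9 and in 6.45% of all. A gene was counted if any of its windows had a match, whereas the shares are over single windows. Genes with several windows had more chances, so the 2 figures are not on the same unit. Both strands were searched, so that CACGTT also appears as AACGTG, and no match overlapped another. A match is a run of letters and does not show that a factor binds.

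The first 3 stretches show the ROR element core of Arntl and the E-box forms of Per1 and Cry1, with matches in capitals. The Arntl stretch lies on GRCm38.p6 at chr7:113207531-113207557 on the plus strand, at bases 21 to 47 counted from a start site, that is, within the transcribed part. The Per1 stretch lies at chr11:69098773-69098798 on the plus strand, at bases -176 to -151, and the Cry1 stretch at chr10:85185108-85185137 on the minus strand, at bases -83 to -54, where negative positions lie before the start.
Arntl: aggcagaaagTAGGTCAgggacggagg
Per1: cacccaagtcCACGTGcagggatgtg
Cry1: cagaAACGTGaggtgccggtggtCACGTGg

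The next 3 are the whole 250 bases before the start of Per3, Cry2 and Nr1d1, shown because Per3 and Cry2 followed each other most closely between mice while Nr1d1 did not follow them. None of these 3 stretches overlaps an annotated exon. Per3 is at chr4:151044666-151044915, Cry2 at chr2:92434070-92434319 and Nr1d1 at chr11:98775378-98775627, all on the minus strand of GRCm38.p6. Capitals mark 2 D-boxes in Per3 and 1 E′-box each in Cry2 and Nr1d1.
Per3: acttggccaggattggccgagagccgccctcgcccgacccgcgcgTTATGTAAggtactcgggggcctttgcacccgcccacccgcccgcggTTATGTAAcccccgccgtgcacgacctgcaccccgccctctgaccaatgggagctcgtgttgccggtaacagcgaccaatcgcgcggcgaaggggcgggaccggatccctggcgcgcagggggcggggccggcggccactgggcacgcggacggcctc
Cry2: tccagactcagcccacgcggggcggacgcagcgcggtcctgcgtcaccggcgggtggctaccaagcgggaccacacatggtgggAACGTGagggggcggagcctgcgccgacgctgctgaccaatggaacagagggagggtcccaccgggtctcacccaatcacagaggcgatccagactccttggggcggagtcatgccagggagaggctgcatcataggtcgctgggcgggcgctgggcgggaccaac
Nr1d1: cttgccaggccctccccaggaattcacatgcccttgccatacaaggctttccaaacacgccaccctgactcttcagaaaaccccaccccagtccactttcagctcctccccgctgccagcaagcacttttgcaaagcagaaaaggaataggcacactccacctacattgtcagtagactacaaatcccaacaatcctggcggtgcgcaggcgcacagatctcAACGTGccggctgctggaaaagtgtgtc

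Libraries held 35499796 to 53917339 counted reads, and 15616 genes passed a filter on low counts, among them all 10 clock genes. Npas2 passed only through the few mice in which it was high. Levels are given as CPM, read counts divided by the size of each library after scaling by the TMM method. Sirt2 ran at 40.2 to 56.2 CPM in the 10 wild-type mice and at 16.9 to 27.5 CPM in the 10 knockouts, with no overlap. The summed CPM of 6 hepatocyte markers was 74933 to 165390 over the 20 mice. Leukocyte markers, of which 5 of 6 were in the table, summed to 43.0 to 120 CPM in Control, 40.5 to 148 in CE, 78.1 to 145 in Sirt2-/- and 108 to 173 in Sirt2-/-/CE. Erythrocyte markers summed to 127 to 850 CPM, stellate cell and cholangiocyte markers to 4.30 to 24.4 CPM and pancreas markers to 4.83 to 18.9 CPM. Adipocyte and skeletal muscle markers did not exceed 0.172 CPM, with Lep, Plin1 and Ckm at 0 in all mice. Judged by its median Spearman correlation with the others over all genes, each library lay at 0.9604 to 0.973, except Control mouse 3, CE mouse 8, Sirt2-/- mice 14 and 15 and Sirt2-/-/CE mouse 16, which lay at 0.943 to 0.954. The part of any of these in the results below was not tested, except for the spread between mice. Bulk liver cannot tell fewer cells of a type from less RNA per cell.

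Measured per transcript length, in the authors' FPKM averaged over the 20 mice, the order was Nr1d2 (13.9), Nr1d1 (12.7), Cry2 (8.10), Per1 (5.16), Per2 (4.97), Cry1 (4.88), Clock (4.01), Per3 (2.58), Arntl (2.40) and Npas2 (0.174). Of the 9 neighbouring pairs in this order, only Cry2 and Per1 differed by more than the spread of their difference between mice (2.94 ± 2.90 FPKM, SD, n = 20). Arntl exceeded Npas2 in 20 of 20 mice, by 2.22 ± 2.29 FPKM. The other 7 pairs differed by less than that spread. Nr1d1 shares 263 exonic bases of its 3077 with Thra on the other strand, Cry2 shares 295 of 6320 with D930015M05Rik and Arntl shares 33 of 7523 with Gm45355. Because strand-specific counting is not stated, reads in these stretches cannot be assigned. Nr1d2 shares no exonic bases with another gene, but a stretch of 1385 of its bases is 96.1% identical to AC170187.1. How reads that match both were counted is not given in the sources used here.

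**Figure D1:**
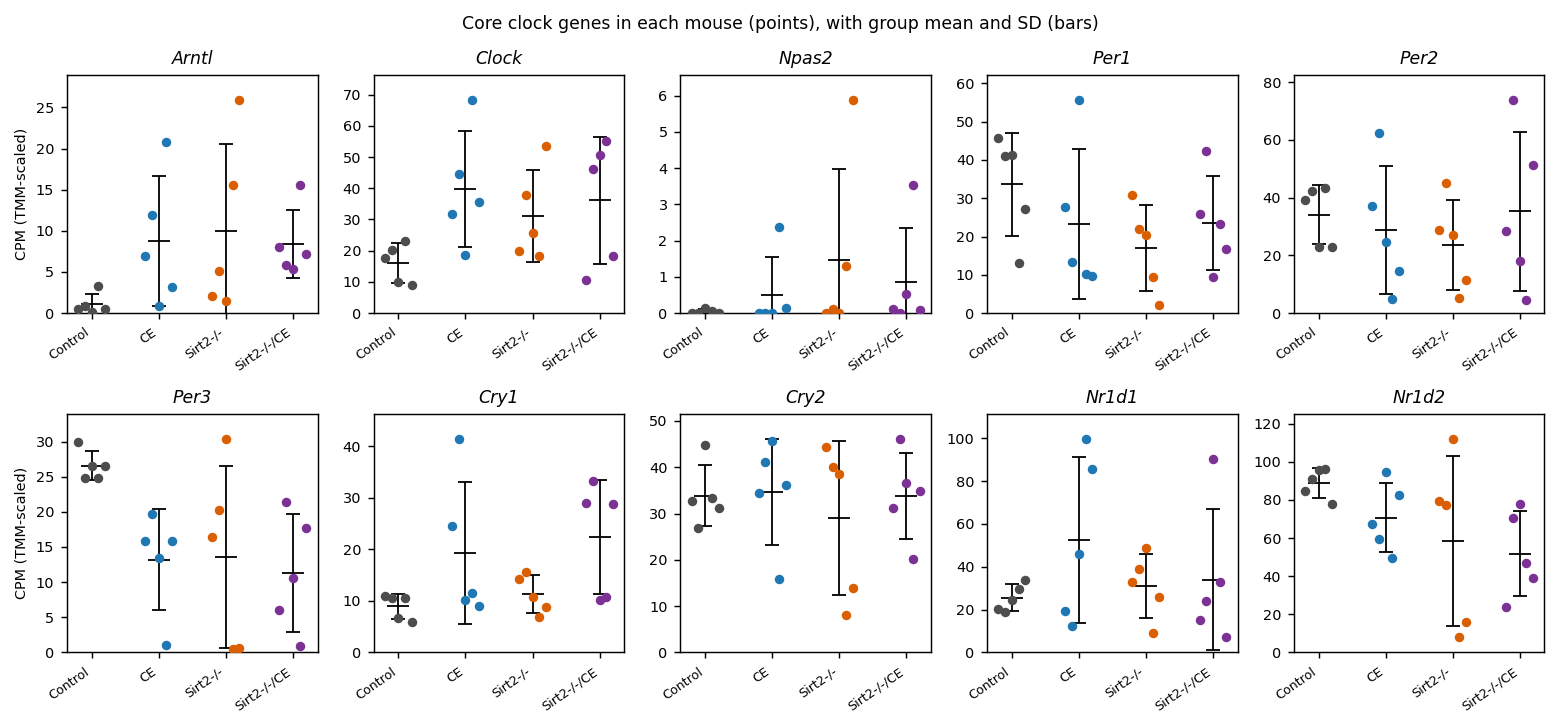
CPM of each clock gene (y axis, from 0) in each mouse (points) of the 4 groups (x axis), with the group mean and SD as bars, which are not drawn below 0. Control mice sit close together for Per3 (24.8 to 29.9 CPM) and Nr1d2, whereas single mice of the other groups lie far below, and Arntl is at or under 3.28 CPM in every Control mouse.

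Arntl, which encodes the shared partner of the activating pair, was low in Control livers and higher in most of the others. Control mice 1 to 5 had 0.437, 0.851, 0.123, 3.28 and 0.537 CPM. In CE mice 6 to 10 the level was 6.98, 11.9, 0.905, 20.8 and 3.13 CPM. The range in Control thus overlapped with CE only through Control mouse 4 and CE mice 8 and 10. Sirt2-/- mice 11 to 15 had 2.02, 5.13, 1.48, 15.5 and 25.9 CPM, and Sirt2-/-/CE mice 16 to 20 had 8.07, 5.90, 5.37, 15.5 and 7.20 CPM. All 5 Sirt2-/-/CE mice lay above all 5 Control mice. Between the mouse with the lowest and that with the highest level (Control mouse 3 and Sirt2-/- mouse 15) Arntl spanned 210-fold.

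In edgeR's quasi-likelihood test over all genes, Arntl was higher than in Control by 3.06 in CE (log2 fold change, SE 0.88, adjusted p = 0.202), by 3.25 in Sirt2-/- (SE 0.89, adjusted p = 0.0769) and by 2.9996 in Sirt2-/-/CE (SE 0.88, adjusted p = 0.185). None of these passed the threshold of 0.05. Under DESeq2 all 3 did, with adjusted p of 0.0418, 0.00909 and 0.0354. Under limma voom with sample quality weights only Sirt2-/-/CE did (0.0527, 0.108 and 0.04895 in the same order). DESeq2 called 169, 607 and 239 of all 15616 genes in these comparisons, and limma voom 540, 906 and 340. The call of Arntl thus rests on the choice of test. The size did as well: limma on log2(FPKM + 1), a scale that shrinks low genes, gave 1.28, 1.43 and 1.49. The difference of Sirt2-/- from Control also passed in edgeR when Control mouse 4 (4.34, adjusted p = 0.0297) or Sirt2-/- mouse 13 (3.53, adjusted p = 0.0407) was left out.

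Clock, the usual partner of ARNTL, had 17.7, 20.4, 9.87, 23.2 and 9.07 CPM in Control mice 1 to 5. The CE mice had 31.7, 44.7, 18.6, 68.3 and 35.5 CPM. Only CE mouse 8 fell into the range of the Control mice. In Sirt2-/- mice the level was 19.98, 37.7, 25.5, 18.3 and 53.7 CPM, and in Sirt2-/-/CE mice 10.5, 46.3, 50.7, 55.1 and 18.3 CPM, both overlapping with Control. Relative to Control, the log2 fold change of Clock was 1.31 (SE 0.43) in CE, 0.95 (SE 0.43) in Sirt2-/- and 1.17 (SE 0.43) in Sirt2-/-/CE. Their edgeR adjusted p-values were 0.271, 0.299 and 0.288. limma voom with sample quality weights called Clock in CE (adjusted p = 0.0468) and in Sirt2-/-/CE (adjusted p = 0.0357). It called 540 and 340 of all 15616 genes there.

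Npas2, which can take the place of CLOCK, was barely detected except in single mice. Its counts were 0, 0, 6, 3 and 0 reads in Control and 0, 0, 0, 115 and 5 reads in CE. Sirt2-/- mice had 0, 4, 0, 52 and 246 reads, and Sirt2-/-/CE mice had 4, 0, 22, 146 and 4 reads. The high values thus belonged to CE mouse 9, Sirt2-/- mice 14 and 15 and Sirt2-/-/CE mouse 19, which were also the 4 mice with the most Arntl. In CPM these were 2.38, 1.30, 5.88 and 3.52. The fitted log2 fold change against Control was 3.62 (SE 1.94) in CE, 5.11 (SE 1.98) in Sirt2-/- and 4.34 (SE 1.95) in Sirt2-/-/CE, with edgeR adjusted p of 0.543, 0.220 and 0.412. Each rests on single mice. Without CE mouse 9 the value in CE turned to -0.15, without Sirt2-/- mouse 15 that in Sirt2-/- was 3.05, and without mouse 19 that in Sirt2-/-/CE was 2.11.

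Per3, a period gene, was the steadiest member in Control and one of the least steady elsewhere. Control mice had 29.9, 24.8, 26.5, 24.9 and 26.5 CPM. The CE mice had 15.9, 19.7, 13.5, 1.01 and 15.9 CPM, all below all Control mice. Sirt2-/- mice had 16.4, 20.3, 30.3, 0.425 and 0.574 CPM. With mouse 13 above every Control mouse and mice 14 and 15 near 0, that group overlapped with Control. The Sirt2-/-/CE mice had 6.08, 21.4, 10.5, 0.845 and 17.7 CPM, again all below Control. The fitted differences from Control were -1.01 (SE 0.86) in CE, -0.97 (SE 0.86) in Sirt2-/- and -1.23 (SE 0.87) in Sirt2-/-/CE, with edgeR adjusted p of 0.745, 0.649 and 0.650. The value in Sirt2-/- was -1.496 without mouse 13, and -0.65 both without mouse 14 and without mouse 15. In Sirt2-/-/CE the value was -2.23 under limma voom (adjusted p = 0.207).

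Per1, which responds to acute signals as well as to the clock, had 45.8, 41.0, 41.3, 13.1 and 27.1 CPM in Control and 27.6, 13.3, 55.6, 10.2 and 9.70 CPM in CE. In Sirt2-/- it had 30.9, 21.9, 20.3, 9.54 and 2.20 CPM, and in Sirt2-/-/CE 25.8, 42.5, 9.31, 23.3 and 16.8 CPM. The groups overlapped, and the log2 fold change furthest from 0 was that of Sirt2-/- against Control (-0.99, SE 0.57, edgeR adjusted p = 0.441). Per2, the period gene that peaks late, had 39.0, 42.1, 22.9, 43.2 and 23.0 CPM in Control and 37.2, 62.2, 24.7, 4.81 and 14.6 CPM in CE. It had 28.7, 45.2, 26.9, 5.35 and 11.5 CPM in Sirt2-/-, and 28.4, 73.8, 18.04, 4.63 and 51.4 CPM in Sirt2-/-/CE. Each of the other 3 groups thus held mice below and mice above all Control mice, and no comparison of Per2 had an adjusted p under 0.75.

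Cry1, a cryptochrome repressor, was higher in some but not all exposed mice. Control mice had 10.97, 10.5, 6.69, 10.5 and 5.98 CPM, and Sirt2-/- mice had 14.2, 15.7, 10.7, 6.87 and 8.84 CPM. The CE mice had 24.5, 41.3, 10.1, 11.4 and 8.90 CPM, and the Sirt2-/-/CE mice 28.9, 33.3, 10.1, 10.7 and 28.8 CPM. The 5 mice above 20 CPM (6, 7, 16, 17 and 20) were all cold-exposed, and the other 5 exposed mice lay within the range of the unexposed. The log2 fold change was 1.11 (SE 0.41, edgeR adjusted p = 0.325; 0.62 without CE mouse 7) in CE and 1.32 (SE 0.42, adjusted p = 0.214) in Sirt2-/-/CE against Control, where limma voom gave 0.63. Against Sirt2-/-, Sirt2-/-/CE differed by 0.99 (SE 0.41, adjusted p = 0.625) in edgeR and by 0.18 in limma voom, and Sirt2-/- differed from Control by 0.34 (SE 0.41, adjusted p = 0.764). Cry2, the second cryptochrome, spanned 5.69-fold between the lowest and the highest of the 20 mice, beside 6.91-fold for Cry1. Within Sirt2-/- Cry2 varied more than Cry1 (SD of log2 CPM 1.10 beside 0.487). Cry2 spanned 27.0 to 44.8 CPM in Control and 15.8 to 45.7 CPM in CE. In Sirt2-/- it spanned 8.09 to 44.4 CPM and in Sirt2-/-/CE 20.2 to 46.0 CPM, with mice 14, 15, 9 and 19 the lowest of the 20.

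Nr1d1, the REV-ERBα gene, had 20.4, 18.9, 24.5, 29.8 and 33.8 CPM in Control and 19.4, 12.4, 45.9, 99.5 and 85.7 CPM in CE. Sirt2-/- mice had 33.1, 38.9, 48.8, 8.87 and 25.9 CPM, and Sirt2-/-/CE mice 15.3, 24.0, 90.3, 32.7 and 7.32 CPM. Each of the other 3 groups again held mice below and mice above all Control mice. Its difference of CE from Control was 1.05 on the log2 scale (SE 0.59, edgeR adjusted p = 0.568), and 0.68 without CE mouse 9. Nr1d2, the REV-ERBβ gene, had 84.5, 90.8, 95.9, 96.0 and 77.9 CPM in Control and 67.5, 59.5, 94.8, 49.3 and 82.4 CPM in CE. It had 79.3, 77.5, 112, 7.87 and 16.04 CPM in Sirt2-/- and 24.1, 70.6, 77.9, 46.9 and 39.1 CPM in Sirt2-/-/CE. The 2 lowest livers were those of Sirt2-/- mice 14 and 15. Against Control its log2 fold change was -0.61 (SE 0.47, adjusted p = 0.596) in Sirt2-/-, which became -0.32 without mouse 14, -0.36 without mouse 15 and -0.98 without mouse 13, and -0.78 (SE 0.48, adjusted p = 0.585) in Sirt2-/-/CE.

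**Figure D2:**
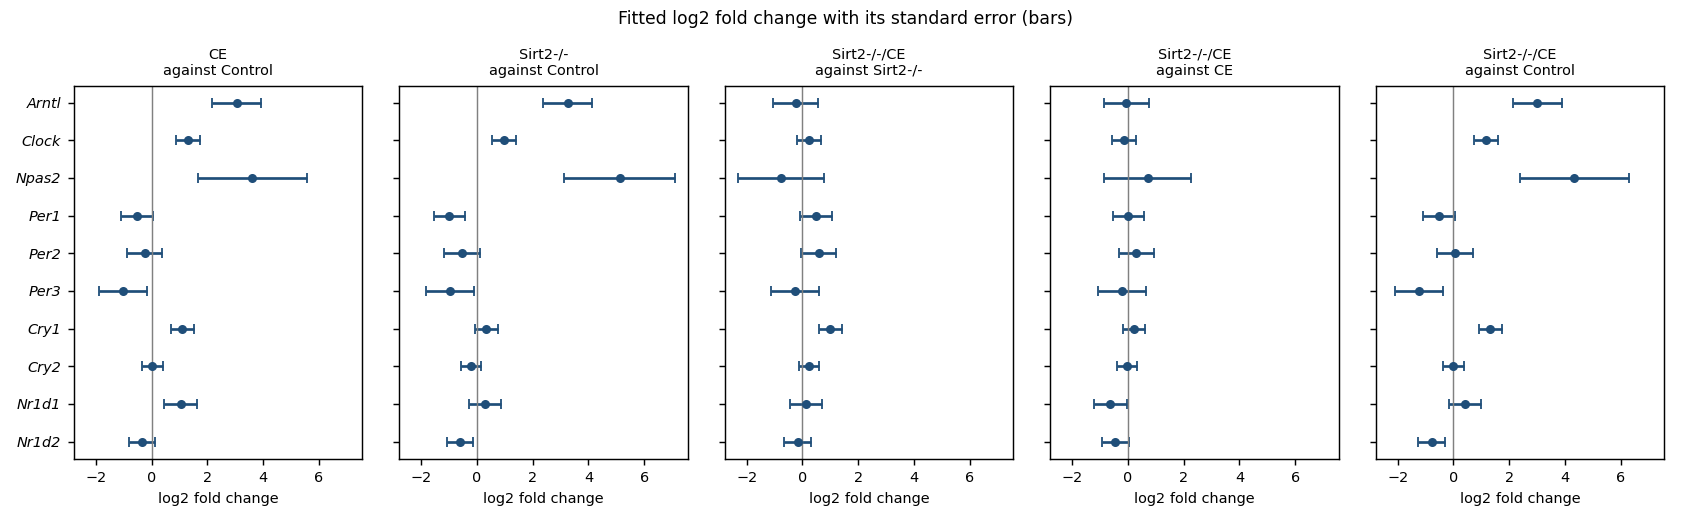
Fitted log2 fold change (x axis) of each clock gene (y axis) in the 5 comparisons of groups, with its standard error as bars. Arntl, Clock and Npas2 lie to the right of 0 in the 3 comparisons with Control, and the Arntl point lies within 1 standard error of 0 in both others.

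The question of the design was how cold exposure and loss of Sirt2, alone and together, change the liver transcriptome. For the clock genes, 0 of 10 passed edgeR's adjusted p of 0.05 in any comparison, with 0 to 1 called by DESeq2 and 0 to 2 by limma voom. Of all 15616 genes, DESeq2 called 169 in CE, 607 in Sirt2-/- and 239 in Sirt2-/-/CE against Control. The counts under limma voom were 540, 906 and 340 in the same order. In CE against Control edgeR called 0.0064% of all genes. Of the 9 without Npas2, 3 (Arntl, Clock and Cry1, all higher) had an unadjusted p under 0.05, beside 10.7% of all genes. The median log2 fold change of these 9 was 0.034, beside -0.01 over all genes tested, and lay between -0.014 and 0.049 under the other tools, scalings and filters. Npas2, with its few reads, moved the median to 0.54. Only Per3 had groups that did not overlap, and that share of 1 in 10 stands beside 3.04% of all genes.

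In Sirt2-/- against Control, 0 of 10 were called beside 0.89% of all genes, and 2 of the 9 without Npas2 (Arntl and Clock, both higher) had an unadjusted p under 0.05 beside 14.9%. The p of Npas2 was under 0.05 too, but that gene passed the filter only through mice outside Control, so it is not counted here. The median of the 9 was -0.22, beside 0.02 over all genes, and 0.10 under limma voom, while with Npas2 it was 0.033. None of the 10 had groups without overlap, beside 3.61% of all genes. Scaling by library size in place of TMM raised the median of all genes in this comparison by 0.14 and called Arntl (3.46, adjusted p = 0.0488). In Sirt2-/-/CE against Control, 0 of 10 were called beside 0.122%, and 3 of the 9 without Npas2 (Arntl, Cry1 and Clock, all higher) had an unadjusted p under 0.05 beside 11.2%. The median of the 9 was 0.05, beside 0.03 over all genes, and -0.016 under limma voom, while with Npas2 it was 0.23. Arntl and Per3 were the 2 of 10 whose groups did not overlap, beside 2.71% of all genes. These 3 comparisons share the same 5 Control mice, so that their likeness is no independent repeat.

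The remaining comparisons of groups were those of Sirt2-/-/CE with each single condition. In Sirt2-/-/CE against Sirt2-/-, 0 of 10 were called by edgeR beside 0% of all genes, and Cry1 alone had an unadjusted p under 0.05 beside 7.25%. Under limma voom no member had one there. No member had groups without overlap, beside 0.743% of all genes. In Sirt2-/-/CE against CE, 0 of 10 were called beside 0.0128%, and 0 of 10 had an unadjusted p under 0.05 beside 6.09%. No member was free of overlap there, beside 1.22% of all genes. The lowest p of the 10 was that of Nr1d1 (-0.63, SE 0.58, edgeR adjusted p = 0.939), which turned to 0.092 under limma voom. It was -0.27 without CE mouse 9, -0.39 without CE mouse 10, -0.37 without Sirt2-/-/CE mouse 20 and -1.41 without Sirt2-/-/CE mouse 18.

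The interaction term asks whether cold exposure acted differently in the 2 genotypes. It called 0 of 10 members beside 0% of all genes, and DESeq2 and limma voom also called 0 of 10. Arntl alone had an unadjusted p under 0.05 (0.0108), beside 8.34% of all genes, with an estimate of -3.31 (SE 1.18, edgeR adjusted p = 0.461). The mean level of Arntl was 1.05 ± 1.28 CPM in Control, 8.75 ± 7.93 in CE, 10.01 ± 10.5 in Sirt2-/- and 8.42 ± 4.12 in Sirt2-/-/CE (SD, n = 5 each). The term measures, on the log2 scale, how far Sirt2-/-/CE lies from the product of the fold changes of CE and of Sirt2-/-. Clock (-1.09, SE 0.61) and Npas2 (-4.40, SE 2.48) had estimates of the same sign, with edgeR adjusted p of 0.662 and 0.665. The estimate of Npas2 was -0.62 without CE mouse 9 and 0.38 under limma voom.

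Mice of one group lay far apart in their clock genes. The SD of log2 CPM between mice of a group, pooled over the 4 groups, was 2.37 for Npas2, 1.95 for Per3, 1.498 for Arntl, 1.24 for Per2 and 0.678 for Cry2, the lowest of the 10. The median over all genes tested was 0.429. All 10 clock genes were above that median, and 6 of 10 were above the 90th percentile of all genes tested. Among those 6 is Npas2, which passed the filter only through the few mice where it was high. Nr1d1 and Per1 lay just past the line, at the 90.004 and 90.3 percentiles. The part of counting error in this spread was not tested. Npas2 had 0 reads in 9 of 20 mice, and Per3, at the 99.2 percentile, had 49, 17, 24 and 35 reads in mice 9, 14, 15 and 19.

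In Control the 10 SDs had a median of 0.442, and 7 of 10 were above the median of all genes in that group (0.330). They were 1.56 for Arntl, 0.941 for Npas2, 0.746 for Per1, 0.617 for Clock, 0.469 for Per2, 0.415 for Cry1, 0.353 for Nr1d1, 0.266 for Cry2, 0.130 for Nr1d2 and 0.109 for Per3. Per3 and Nr1d2 in Control lay at the 6.75 and 10.6 percentiles of all genes, that is, among the steadiest. The median SD of the 10 was 1.20 in CE, 1.37 in Sirt2-/- and 0.955 in Sirt2-/-/CE. Per3 had an SD of 1.77, 2.94 and 1.85 in these 3 groups. The SD was above that in Control for 10 of 10 clock genes in CE, 10 of 10 in Sirt2-/- and 9 of 10 in Sirt2-/-/CE, where Arntl was the exception (0.600 against 1.56). These counts and medians include Npas2, with an SD of 0.941 in Control and 2.48, 3.10 and 2.40 in the other groups. Because Npas2 passed the filter only through mice outside Control, its larger SD there was set in advance. For comparison, 54.3%, 66.3% and 65.1% of all genes tested had a larger SD than in Control in the same 3 groups. Without the 5 libraries least like the others, a choice made after seeing the data, the counts were 7 of 10 in CE, 3 of 10 in Sirt2-/- and 9 of 10 in Sirt2-/-/CE, beside 52.1%, 47.2% and 57.3% of all genes. The median SD of the clock genes was then 1.08 in CE, 0.365 in Sirt2-/- and 0.911 in Sirt2-/-/CE, beside 0.421 in Control. Npas2 is part of these counts and medians too. The wide spread in Sirt2-/- thus rests on mice 14 and 15. The difference in spread was not tested.

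**Figure D3:**
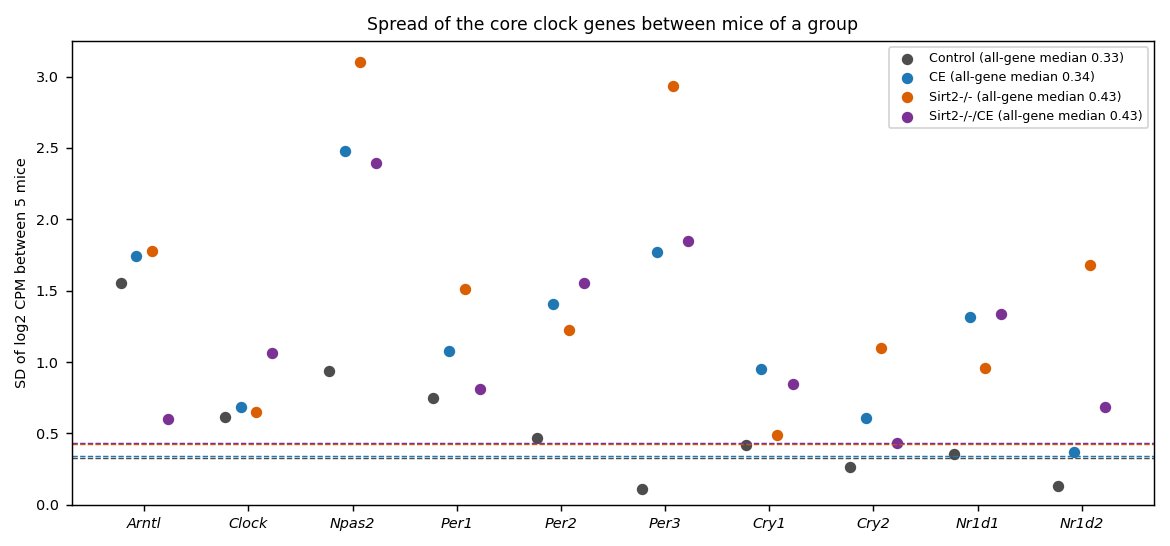
SD of log2 CPM between the 5 mice of a group (y axis) for each clock gene (x axis) and group (colours), with dashed lines at the median SD over all genes tested in that group. The Control points of Per3 (0.109), Nr1d2 (0.130) and Cry2 (0.266) lie under the dashed lines, and the points of the other 3 groups lie at or above them, except that Cry2 in Sirt2-/-/CE (0.436) sits almost on its line.

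Over the 20 mice, with each group centred on its own mean, 12 of the 45 pairs of clock genes had a Pearson r above 0.5 (26.67%) and 11 had one below -0.5 (24.44%). Over all pairs of the 15616 genes tested these shares were 7.56% and 7.12%. Without Npas2, which had 0 reads in 9 of 20 mice and passed the filter only through the mice where it was high, 11 of 36 pairs were above 0.5 and 5 were below -0.5. The closest pairs were Per3 with Cry2 (r = 0.93), Per2 with Per3 (0.85), Cry2 with Nr1d2 (0.84) and Per2 with Cry1 (0.81). Arntl ran opposite to Cry2 (-0.71), Per1 (-0.69), Per3 (-0.65) and Nr1d2 (-0.62). Arntl went with Clock (0.52), whose product pairs with its own. The values of Npas2 rest on those few mice and on the prior count, and are read no further. Nr1d1 stood nearer to Nr1d2 (0.53) and ran opposite to Cry1 (-0.58), with little relation to Per3 (0.04). Every point in these correlations shares its library, depth and scaling with the other genes of that mouse, and they are given as a description of these 20 livers.

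**Figure D4:**
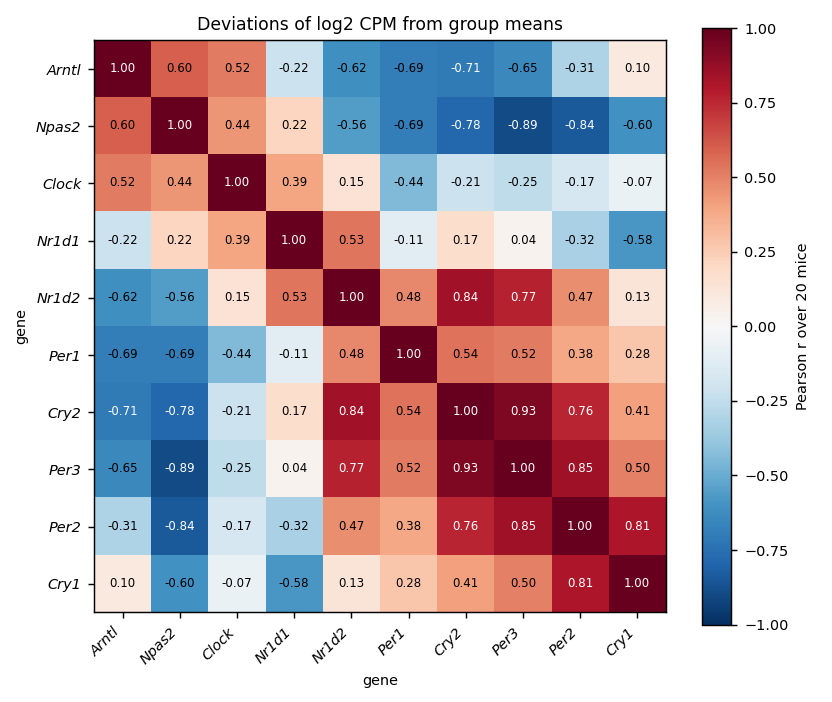
Pearson r (colour and number) between each pair of clock genes (both axes) over 20 mice, on log2 CPM after subtracting each group's mean. The block of Nr1d2, Per1, Cry2, Per3 and Per2 is positive throughout (0.38 to 0.93), and Arntl is negative against all of its members. The values of Npas2 rest on the few mice in which it was detected.

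Single livers show how these relations looked. CE mouse 9 combined 20.8 CPM of Arntl and 2.38 of Npas2 with 1.01 of Per3 and 4.81 of Per2, and with 99.5 of Nr1d1, the highest Nr1d1 of all 20 mice. Sirt2-/- mouse 14 had like values of Arntl (15.5), Per3 (0.425) and Per2 (5.35), but 8.87 CPM of Nr1d1 and 7.87 of Nr1d2. Low Per3 with high Arntl thus occurred both at high and at low Nr1d1. Sirt2-/- mouse 15 had the most Arntl (25.9) and Npas2 (5.88) and the least Per1 (2.20), and Sirt2-/-/CE mouse 19 had 15.5 of Arntl, 0.845 of Per3 and the least Per2 (4.63). In contrast, CE mouse 7 had 11.9 CPM of Arntl together with 19.7 of Per3, 62.2 of Per2, 12.4 of Nr1d1 and the most Cry1 (41.3). Sirt2-/-/CE mice 17 and 20 likewise had high Per2 (73.8 and 51.4) and Cry1 (33.3 and 28.8), with Nr1d1 at 24.0 and 7.32 CPM. CE mouse 8 had Arntl (0.905) and Nr1d2 (94.8) within the range of the Control mice and Per3 (13.5) below it. The combination of clock transcripts thus differed between mice of one group.

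**Figure D5:**
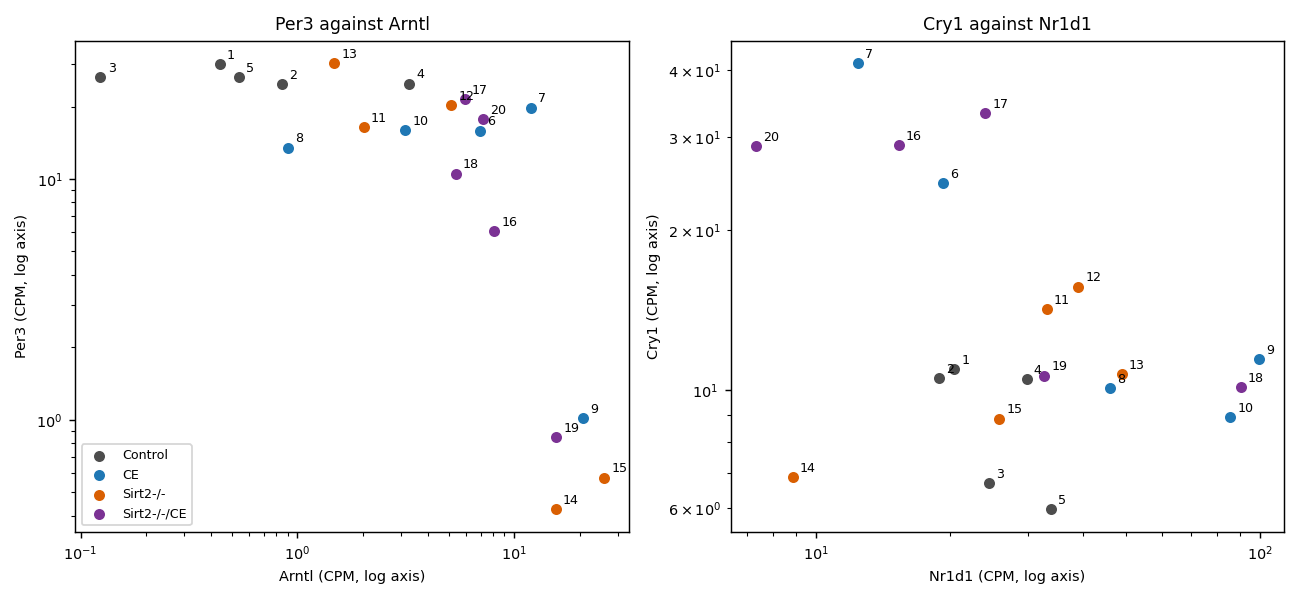
Left, Per3 (y axis) against Arntl (x axis), and right, Cry1 (y axis) against Nr1d1 (x axis), both in CPM on log axes, with 1 point per mouse, coloured by group and labelled with the mouse number. Mice 9, 14, 15 and 19 lie at the lower right of the left panel (Per3 at or under 1.01 CPM), and mice 6, 7, 16, 17 and 20 lie at the upper left of the right panel (Cry1 above 20 CPM). Control mice share a narrow range of Per3 (24.8 to 29.9 CPM) but spread over 0.123 to 3.28 CPM of Arntl.

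A slope on Arntl, fitted for each gene with group as a term, asks how much a gene changes when Arntl is 1 log2 unit further above its group's mean. In edgeR's quasi-likelihood test 0 of the 9 other clock genes had a slope that passed the adjusted p of 0.05, beside 0.167% of all genes, and 6 of 9 had an unadjusted p under 0.05, beside 9.66% of all genes. The slopes of these 6 were -0.49 for Per1 (SE 0.12, adjusted p = 0.122), -0.29 for Cry2 (SE 0.08, adjusted p = 0.146), 1.56 for Npas2 (SE 0.43, adjusted p = 0.157), -0.33 for Nr1d2 (SE 0.11, adjusted p = 0.270), 0.28 for Clock (SE 0.10, adjusted p = 0.296) and -0.58 for Per3 (SE 0.26, adjusted p = 0.461). Without Npas2 it was 5 of 8. The slope of Npas2 is a value only, because that gene passed the filter through mice that also had the most Arntl, and this holds too for its value without Control mouse 3 (2.22, adjusted p = 0.0194). Cry1, Nr1d1 and Per2 had adjusted p of 0.937, 0.919 and 0.931. DESeq2 and limma voom were not run on this slope.

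Over 10396 other genes averaging 1 FPKM or more, the 5 whose centred levels were most like those of Arntl over the 20 mice were Leo1 (r = 0.91), Mal2 (0.90), Blcap (0.90), Ddc (0.89) and Pnkd (0.88). Leo1 encodes a subunit of the PAF1 transcription elongation complex and Ddc the aromatic amino acid decarboxylase. Ddc spanned 12.95 to 108 CPM and Leo1 4.91 to 22.6 CPM between mice. The 5 most opposite were Zfp36 (-0.85), Jak3 (-0.85), Ppm1a (-0.84), Zranb1 (-0.84) and Hoga1 (-0.84). Zfp36 encodes tristetraprolin, which promotes decay of mRNAs with AU-rich elements, and spanned 19.99 to 74.6 CPM. In the same order of likeness, with the clock genes included (10404 genes), Clock was at place 442 from the top, Cry2 at 10353 and Per1 at 10323.

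Of 19 further genes of the clock machinery, such as the output factor Dbp, the repressors Bhlhe40 and Ciart and the kinase genes Csnk1d and Csnk1e, 18 were tested and 0 were called by edgeR in any comparison. Their median log2 fold change was -0.16 in CE, -0.15 in Sirt2-/- and -0.14 in Sirt2-/-/CE against Control, beside -0.01, 0.02 and 0.03 over all genes. Of those named here for their values, Csnk1d, a casein kinase gene whose product phosphorylates PER proteins, spanned 65.4 to 80.1 CPM in CE and 50.7 to 63.7 CPM in Control, a difference of 0.38 (SE 0.11, edgeR adjusted p = 0.202). It passed under DESeq2 (adjusted p = 0.0439) and limma voom (0.0110), which called 169 and 540 of all 15616 genes there. The ranges of Csnk1d in CE and Control did not overlap, beside 3.04% of all genes in that comparison. Bhlhe40, which encodes a repressor acting at E-boxes, spanned 73.0 to 346 CPM in Control and 21.7 to 125 CPM in Sirt2-/-, a difference of -1.56 (SE 0.44, edgeR adjusted p = 0.0862). Bhlhe40 passed under DESeq2 (adjusted p = 0.0107), which called 607 of all 15616 genes there. Against Arntl, 0 of 18 slopes passed and 6 had an unadjusted p under 0.05, all negative. Over all genes 0.167% passed and 9.66% had an unadjusted p under 0.05, of which 48.4% were negative. The 6 list genes include Dbp (-0.85, SE 0.26, adjusted p = 0.196) and Ciart (-0.78, SE 0.21, adjusted p = 0.149). Dbp spanned 71.6 to 99.0 CPM in Control, 4.32 to 65.4 in CE, 0.325 to 66.8 in Sirt2-/- and 2.46 to 48.1 in Sirt2-/-/CE. Control thus did not overlap with the other groups, beside 3.04%, 3.61% and 2.71% of all genes. In Sirt2-/-/CE against Control the difference of Dbp was -2.11 (SE 0.98, edgeR adjusted p = 0.432).

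Of 12 liver genes known to follow the clock, all were tested and 0 were called by edgeR. Their median log2 fold change was -0.21 in CE, -0.53 in Sirt2-/- and -0.33 in Sirt2-/-/CE against Control, beside -0.01, 0.02 and 0.03 over all genes. Gys2, the liver glycogen synthase gene, spanned 181 to 479 CPM in Control, 77.8 to 221 in CE, 85.9 to 260 in Sirt2-/- and 106 to 360 in Sirt2-/-/CE. Its log2 fold changes against Control were -0.99 in CE (SE 0.37, adjusted p = 0.323) and -1.03 in Sirt2-/- (SE 0.37, adjusted p = 0.180). Alas1, which encodes the first enzyme of heme synthesis, had -1.25 in CE (SE 0.55, adjusted p = 0.419). Insig2, which restrains sterol synthesis and is known as a REV-ERBα target in liver, spanned 43.1 to 85.0 CPM in Control, 77.4 to 366 in CE, 73.6 to 260 in Sirt2-/- and 93.4 to 402 in Sirt2-/-/CE. Its log2 fold changes against Control were 1.46 (SE 0.44), 1.25 (SE 0.44) and 1.62 (SE 0.44), with edgeR adjusted p of 0.226, 0.170 and 0.160. Insig2 passed in CE under DESeq2 (adjusted p = 0.0439) and limma voom (0.0486), and in Sirt2-/-/CE under both (0.0145 and 0.0149), and without CE mouse 9 its value in CE was 0.95. In these comparisons DESeq2 called 169 and 239 of all 15616 genes, and limma voom 540 and 340. Sirt2-/-/CE did not overlap with Control for Insig2, beside 2.71% of all genes in that comparison. Elovl3, a fatty acid elongase gene, ran from 1.38 to 751 CPM within Sirt2-/-/CE alone, beside 6.14 to 45.1 CPM in Control (3.02, SE 1.01, adjusted p = 0.246), and without Sirt2-/-/CE mouse 19 the difference was 1.74. On Arntl, 0 of 12 slopes passed, and 6 had an unadjusted p under 0.05, of which 5 were negative, beside the same shares over all genes. Gys2 had -0.30 (SE 0.08, adjusted p = 0.130) and Insig2 had 0.30 (SE 0.09, adjusted p = 0.173).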

How the data were processed

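Liver poly(A) RNA of 20 mice was sequenced, 5 mice per group. The authors deposited 1 table with read counts per gene and FPKM per gene for each mouse. Per the labels it rests on the mm10 build, while the aligner, counter and strand setting are not given in the sources used here. The 9 lines of the table that name no gene were dropped. Genes were filtered with filterByExpr of edgeR 4.0.16 (minimum count 10, minimum total 15), counts were scaled by TMM, and a quasi-likelihood model with 1 mean per group was fitted over all 4 groups in R 4.3.3. P-values were adjusted by Benjamini-Hochberg over all genes tested. The slope model added log2 CPM of Arntl (prior count 2), centred within groups. Alternatives were DESeq2 1.42.0, limma 3.58.1 voom with quality weights, DESeq2 size factors, library size scaling, no filter, fits of only the 2 groups compared, limma on log2(FPKM + 1), and leaving out each mouse. Libraries held 35499796 to 53917339 counted reads. The code was tested on simulated data. Shared exons were counted in GENCODE vM21, and copies were sought at 95% identity over 150 bases. The labels name separate samples and not litters or days, so that p-values measure the spread between these mice. The members and gene lists were chosen with earlier results of these data known. By rule, the genes named were the 10 members with Sirt2, list genes called in a comparison, of which there were 0, and the 5 genes most like and most opposite to Arntl. The list genes given with values were chosen outside this rule, after their values were seen.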

Additional observations from a re-analysis of the deposited data

Results flagged for a closer look

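In 2 of the 40 combinations of clock gene and group, 1 mouse stood apart from the other 4 by Dixon's criterion on log2 CPM (gap over range above 0.71), and chance flags about 1 in 20. Both were in CE mouse 9. Its Per3 was 1.01 CPM, beside 13.5 to 19.7 CPM in the other CE mice, with a gap of 0.870 of the range. Its Cry2 was 15.8 CPM, beside 34.4 to 45.7 CPM, with a gap of 0.732 of the range.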

How the results depend on the processing

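Of 128 recounts of the clock genes called, 119 gave the main count of 0 and 9 did not. DESeq2 called 1 (Arntl) in each of the 3 comparisons with Control. limma voom with quality weights called 1 (Clock) in CE and 2 (Arntl and Clock) in Sirt2-/-/CE against Control, and scaling by library size called 1 (Arntl) in Sirt2-/- against Control. Leaving out 1 mouse at a time gave 0 to 1 in Sirt2-/- against Control and, for the slope on Arntl, 0 to 1 (Npas2). Fits of only the 2 groups compared tested 9 members, without Npas2. Of 815 recomputed fold changes and slopes printed above, 795 kept sign and side of the threshold and 17 passed it newly. The sign turned in 3: Npas2 in CE against Control without CE mouse 9 (-0.15, within a range of -0.15 to 4.84 over the mice left out), Nr1d1 in Sirt2-/-/CE against CE under limma voom (0.092) and the interaction of Npas2 under limma voom (0.38). The cause was not tested.

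Over all genes the count of calls moved more. In CE against Control 1 gene was called, beside 169 under DESeq2, 540 under limma voom, 0 with only those 2 groups and 0 to 68 without 1 mouse. In Sirt2-/- against Control 139 were called (60 higher, 79 lower), beside 607, 906, 29 and 5 to 375 in the same order, 35 without a filter, and 419 (330 higher, 89 lower) with library size scaling. In Sirt2-/-/CE against Control 19 were called, beside 239, 340, 3 and 0 to 67, and 7 without a filter. In Sirt2-/-/CE against CE it was 2, beside 31 under DESeq2, 0 with only those groups, 1 with library size scaling and 1 to 6. In Sirt2-/-/CE against Sirt2-/- it was 0, with 1132 at an unadjusted p under 0.05, 7 under DESeq2 and 0 under limma voom. The interaction had 0, with 1303 at an unadjusted p under 0.05, 41 under DESeq2, 0 under limma voom and 0 to 2 without 1 mouse. The slope on Arntl had 26, beside 15 without a filter and 5 to 43 without 1 mouse. No paired analysis was possible because no replicate number is shared between groups.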
